A study of Mus musculus with 3 samples.

Results

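Of the binding sites of REV-ERB beta in mouse liver, 797 were well above the lowest peaks of their list and had no REV-ERB alpha peak nearby. The alpha and beta forms are related nuclear receptors, the products of Nr1d1 and Nr1d2. Both bind DNA at a nuclear receptor half-site with an A/T-rich flank and repress transcription in the circadian clock and in liver metabolism, largely through the NCoR corepressor and its histone deacetylase. The receptors are known to overlap in function, which gives sites listed for beta alone their interest. The study mapped both by chromatin immunoprecipitation and sequencing (ChIP-seq) in livers of male C57BL/6 mice aged 20 weeks, taken at zeitgeber time 8, that is 8 hours after lights on. The mice had been kept for 3 days under 12 hours of light and 12 of dark. There were 3 libraries, 1 with an antibody to REV-ERB alpha, 1 with an antibody to REV-ERB beta and 1 of input DNA without antibody (how many livers went into each is not stated in the labels).

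The sites were chosen from the beta list by 2 values. A site had at least 40 tags (aligned reads) in the peak window, and no alpha peak centre lay within 5000 bp of its own centre. Of the 22097 beta peaks, 10887 had 40 tags or more (called strong beta peaks here), and 797 of these lay beyond 5000 bp (7.32%). Over the whole beta list 5093 peaks lay that far from alpha (23.0%). These counts describe the rule and test nothing. On chromosome 8 there were 0 beta peaks in the list used here, so the sites come from the 19 chromosomes with beta peaks. Positions follow mm9 and carry no gene or sequence, because the gene tables used belong to another build.

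With 1 library per antibody there is no replicate error and no test across animals. Intervals below are 95% intervals of counting error only, exact binomial for shares, exact Poisson for mean tag counts and from order statistics for medians. Neighbouring peaks and repeated tags are not independent, so the intervals are too narrow for the variation between livers. The alpha tags in the beta windows are not in the lists. A site far from any alpha peak is therefore absent from the alpha list and not shown to be free of REV-ERB alpha. Whether either antibody recognises the other receptor was not tested.

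Most strong beta peaks sat on an alpha peak, and the 797 sites form the far end of a sparse tail. The centres of 8436 strong beta peaks lay within 105 bp of an alpha centre, 928 between 105 and 1000 bp, and 726 between 1000 and 5000 bp. Beyond 5000 bp, 249 sites lay within 10000 bp of alpha, 197 between 10000 and 20000 bp, and 190 between 20000 and 50000 bp. A further 85 lay between 50000 and 100000 bp, and 76 lay more than 100000 bp away. The median distance was 17509 bp (quartiles 8857 and 37215 bp). The limit of 5000 bp cuts through a continuous run of values. The 3 sites nearest inside it lay 5002, 5041 and 5050 bp from alpha, on chromosomes 7, 10 and 2. The 3 strong beta peaks nearest outside it lay at 4972, 4962 and 4959 bp, on chromosomes 4, 2 and 10. In the 1000 bp to either side of the limit, 87 strong beta peaks lay nearer and 64 farther. The tag limit is as arbitrary: 51 sites had exactly 40 tags, and 53 beta peaks equally far from alpha had 39.

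**Figure D1:**
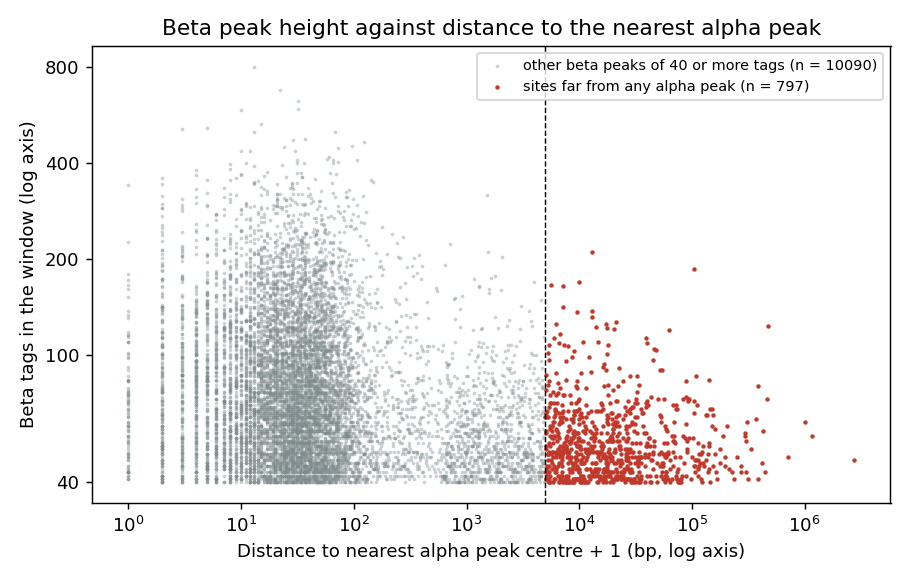
Beta tags in the window (y, log axis) against the distance to the nearest alpha peak centre plus 1 bp (x, log axis) for the 10887 beta peaks of 40 or more tags; each point is 1 peak and the dashed line is the limit of 5000 bp. The 797 sites (red) lie right of the line and reach 211 tags, whereas the others (grey) reach 801.

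The sites were low among strong beta peaks. They held a median of 50 tags (quartiles 44 and 62, highest 211) against 69 (51 and 104, highest 801) in the other 10090. Of the strong beta peaks with 40 to 49 tags, 14.3% were far from alpha (12.9% to 15.7%). The share was 11.05% (9.63% to 12.6%) at 50 to 59 tags, 6.76% (5.78% to 7.84%) at 60 to 79 tags and 1.58% (1.23% to 2.02%) at 80 tags or more. Only 33 of the 2775 beta peaks with 100 tags or more belonged to the set, and 5 sites ranked among the 1000 highest beta peaks. The sites together held 44694 tags, 3.64% of the tags in all beta windows.

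The highest site lay on chromosome X at 166418925 to 166419135, with 211 tags at 123 unique positions and 19 input tags; it ranked 409 in the beta list. Its surroundings were also the richest of the set, with 885 tags in the 10 kb outside its window, and the nearest alpha peak, 13115 bp away, held 115 tags. Next was the site on chromosome 4 at 88287226 to 88287436, with 187 tags, 4 input tags and the nearest alpha centre 103829 bp away. It combined height and distance, with input equal to the median of all sites. The nearest beta peak, 81328 bp away, held 18 tags.

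Then came chromosome 7 at 118025353 to 118025563, where 170 tags stood over 17 input tags. On chromosome 3 lay the next 3, at 88226138 to 88226348 (166 tags, 7 input tags), at 67319502 to 67319712 (165 and 10) and at 98059028 to 98059238 (142 and 2). The last of these had the highest fold over input of the 10 highest sites, 47.7 (1 was added to tags and to input tags before dividing). All 3 had an alpha peak between 5576 and 7209 bp away, of 17 to 24 tags, so they stood close to the distance limit and next to low alpha peaks.

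The 10 highest sites were completed by chromosome 2 at 130653205 to 130653415 (138 tags, 10 input tags), chromosome 1 at 89660456 to 89660666 (137 and 9), chromosome 18 at 56611947 to 56612157 (132 and 14) and chromosome 11 at 43763873 to 43764083 (127 and 10). High input was common at this end of the set: 6 of the 10 had 10 or more input tags. The share was 29.2% over all sites of 80 tags or more and 7.31% over the other strong beta peaks of that height. Tags per unique position ranged from 1.53 to 1.85 over the 10 highest sites, around the median of 1.63 over all sites.

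Mean input was higher at the sites than at other strong beta peaks, but the median was 4 input tags in both. The rule named no input value but required absence from the alpha list, where peaks with input held at least 4.70 times their input. Input is therefore not independent of the rule. The 797 windows held a mean of 4.80 input tags (4.65 to 4.95), and the other 10090 a mean of 4.30 (4.26 to 4.34), a ratio of 1.12 (1.08 to 1.15). The excess was small among low peaks and larger among high ones. Peaks of the beta list with input held at least 4.13 times their input. This limits input in low windows of both groups, so the height classes were not equally free to differ. At 40 to 49 tags the means were 4.30 (SD 2.81 over 375 sites) and 3.89 (SD 2.52 over 2254 peaks), a ratio of 1.10 (1.05 to 1.16). At 50 to 59 tags the ratio was 1.13 (1.05 to 1.21) and at 60 to 79 tags 1.22 (1.13 to 1.31). At 80 tags or more it was 1.56 (1.42 to 1.71): the 65 sites there had a mean of 7.15 input tags (SD 4.76) and the other 4037 peaks 4.60 (SD 3.20). Input counts varied more than counting error allows, with a variance 2.11 times the mean over the sites and 2.00 times over the other peaks, so these intervals are too narrow. The class from 80 tags up is wide, and the sites in it were lower than the other peaks.

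**Figure D2:**
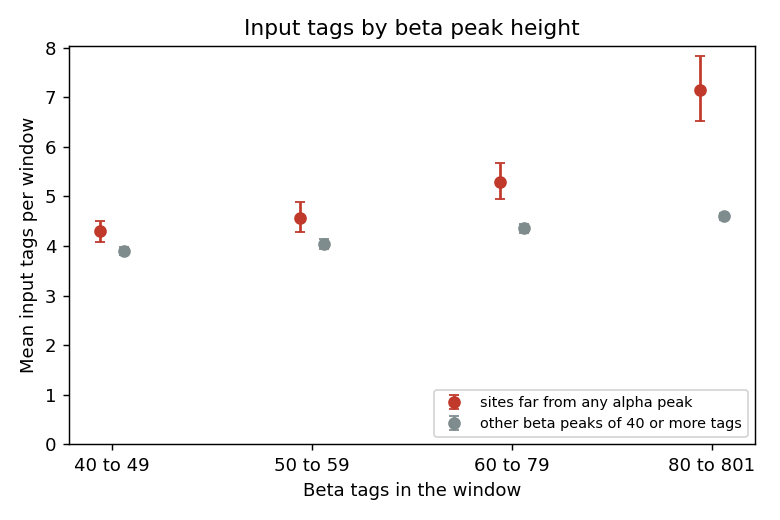
Mean input tags per beta window (y) in 4 classes of beta tags in the window (x) for the sites far from any alpha peak (red) and the other beta peaks of 40 or more tags (grey); bars are exact 95% Poisson intervals. The means are 4.30 and 3.89 in the lowest class and 7.15 and 4.60 in the highest.

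At 80 tags or more the median was 7 input tags (quartiles 3 and 10) at the sites and 4 (2 and 6) at the other peaks, so both quartiles and the median were higher. Windows with 10 or more input tags numbered 66 of the 797 sites (8.28%), against 5.58% of all strong beta peaks. At 80 tags or more they were 19 of 65 sites (29.2%, 18.6% to 41.8%) and 295 of 4037 other peaks (7.31%, 6.52% to 8.15%). Windows with 0 input tags made up 49 of the sites (6.15%), close to the 5.21% of all strong beta peaks. Fold over input at 80 tags or more had a median of 14.3 (11.8 to 18.2) at the sites and 25.8 (24.9 to 26.6) elsewhere, whereas at 40 to 49 tags the medians were 9.20 (8.40 to 10.0) and 10.0 (9.60 to 10.3). No peak with input fell below 4.70 times its input in the alpha list or 4.13 times in the beta list. In both lists the fewest tags a listed window could hold thus rose with its input. Absence from the alpha list chose the sites, so this floor can also act on which peaks count as far from alpha. Its part in the result was not tested.

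The 5 sites with the most input held 15 to 21 input tags. The highest input, 21 tags, was on chromosome 10 at 76904079 to 76904289, where 109 beta tags gave a fold over input of 5. The site on chromosome 4 at 146806109 to 146806319 had 17 input tags under 124 beta tags and was also among the 5 farthest from alpha, at 470978 bp. On chromosome 3 at 148647306 to 148647516, 15 input tags lay under 87 beta tags. The other 2 were among the 10 highest sites named above, on chromosomes X and 7.

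Among the sites themselves, input showed no order with distance from alpha. Mean input was 4.89 (4.62 to 5.17) at the sites within 10000 bp of alpha, 4.58 (4.28 to 4.89) between 10000 and 20000 bp, 5.18 (4.86 to 5.51) between 20000 and 50000 bp, 4.29 (3.86 to 4.76) between 50000 and 100000 bp and 4.70 (4.22 to 5.21) beyond. Strong beta peaks between 1000 and 5000 bp from alpha, outside the set, had a mean of 4.86 (4.70 to 5.02), and 7.85% of them had 10 or more input tags. Input of this level was thus not particular to the sites. Strong beta peaks within 105 bp of alpha had a mean of 4.25 (4.20 to 4.29). The median height was 52 tags in the nearest class of sites and 48.5 in the farthest.

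Repeated tags differed little between the sites and other strong beta peaks. The median number of tags per unique position was 1.63 (1.60 to 1.65) at the sites and 1.66 (1.65 to 1.67) at other strong beta peaks, but this value rises with height. Within height classes the medians were 1.62 and 1.59 at 40 to 49 tags, 1.61 and 1.60 at 50 to 59, 1.63 and 1.63 at 60 to 79, and 1.69 and 1.73 at 80 or more. The last class is wide, and its sites were lower, with a median of 60 unique positions against 68. Averaged over the classes the difference was 0.013. Its range of -0.027 to 0.059 joins opposite ends of the median intervals of both groups. Such a range is wider than an interval of the difference itself, so its holding 0 decides nothing. The most repeated site lay on chromosome 5 at 140808185 to 140808395, with 41 tags at 18 positions. The least repeated lay on chromosome 16 at 46833834 to 46834044, with 53 tags at 45 positions and 0 input tags. The next 4 most repeated sites had 2.11 to 2.16 tags per position, on chromosomes 11, 1, 3 and 1, and the next 4 least repeated 1.21 to 1.25, on chromosomes 10, 3, 11 and 6.

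The 10 kb around the sites held fewer beta tags than those around other strong beta peaks. In the 10 kb around the peak, outside its window, the median was 124 tags (120 to 129) at the sites and 211 (208 to 214) at the others. This span is about the zone that the rule cleared of alpha centres, so the value is tied to the rule. The median was 291.5 tags at strong beta peaks 1000 to 5000 bp from alpha and 145 at sites 5000 to 10000 bp away. Under 200 surrounding tags were found at 677 sites (84.9%) and at 49.1% of all strong beta peaks. At 40 to 49 tags the medians were 119 (114 to 127) and 172 (167 to 176), and at 80 tags or more 157 (141 to 194) and 259 (253 to 266). Other beta peaks nearby add to this value. Among strong beta peaks with no other beta centre within 5000 bp, a comparison chosen after the data were seen, the gap narrowed to 113 tags (109 to 117) at 611 sites and 139 (137 to 141) at 4331 others. In that comparison the intervals of the medians were apart in 1 of 4 height classes: 105 (98 to 116) and 127 (122 to 132) at 50 to 59 tags. They overlapped or touched at 40 to 49 tags, with 108 (101 to 113) and 115 (111 to 119), at 60 to 79 tags, with 121 (113 to 127) and 131 (127 to 136), and at 80 tags or more, with 152.5 (137 to 186) and 171 (165 to 177).

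**Figure D3:**
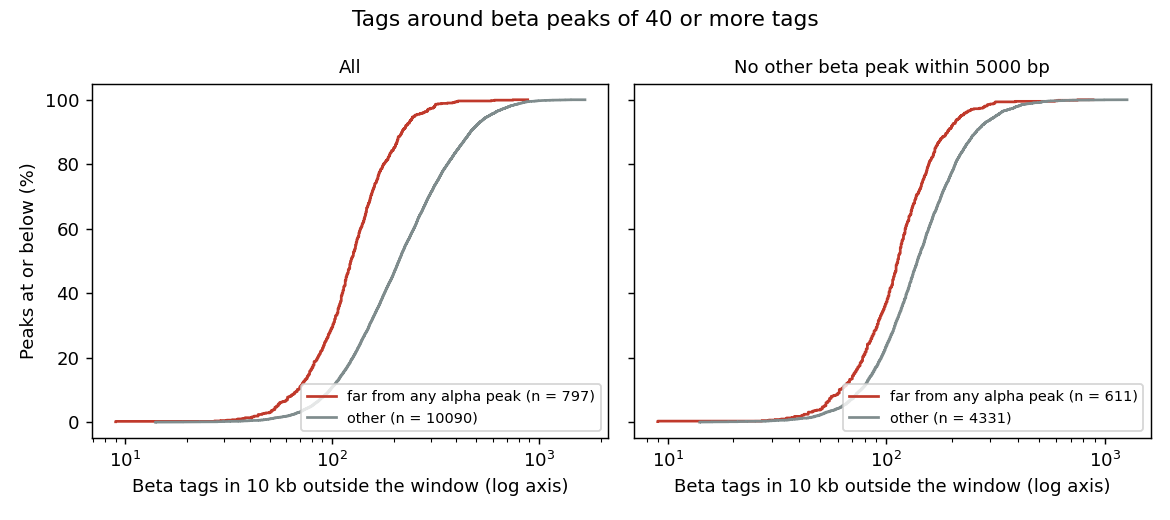
Cumulative share of peaks (y) by the number of beta tags in the surrounding 10 kb outside the window (x, log axis), for all beta peaks of 40 or more tags (left) and for those with no other beta centre within 5000 bp (right). The red curve (sites far from any alpha peak) lies left of the grey one, with medians of 124 and 211 on the left and 113 and 139 on the right.

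The density of tags in the window over that of its surroundings moved with these neighbours and with height. Through the surroundings it was also tied to the rule. It had a median of 20.0 (19.3 to 20.8) at the sites and 16.6 (16.4 to 16.9) at the other strong beta peaks. Without peaks that had another beta centre within 5000 bp, the order turned, with 22.6 (21.2 to 23.6) at the sites and 24.5 (24.2 to 25.1) elsewhere. This turned order compares peaks of unequal height, and within height classes of that comparison the sites had the higher median in 3 of 4. The values were 19.3 (18.1 to 20.3) and 17.7 (17.2 to 18.5) at 40 to 49 tags, and 24.4 (22.2 to 25.6) and 20.0 (19.1 to 20.7) at 50 to 59 tags. They were 25.6 (23.1 to 27.9) and 24.3 (23.5 to 24.9) at 60 to 79 tags, and 32.0 (26.8 to 36.8) and 33.7 (32.8 to 34.8) at 80 tags or more. Only at 50 to 59 tags were the intervals apart.

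The sites also stood apart within the beta list. The next beta centre lay a median of 10882 bp away (9662 to 13112 bp), against 3895 bp (3744 to 4013 bp) for the other strong beta peaks. Another beta centre within 5000 bp was found at 186 sites (23.3%) and at 54.6% of all strong beta peaks, and one within 10000 bp at 384 sites (48.2%) and 71.3%. At 259 sites (32.5%) the next beta centre and the nearest alpha centre were equally far away to within 105 bp. Spacing in the beta list is therefore tied to the distance that chose the sites. The nearest alpha peak was itself within 105 bp of a beta centre for 475 sites (59.6%), against 54.9% of all 23046 alpha peaks on the same chromosomes. The next beta peak had more tags than the site in 219 cases (27.5%), against 30.3% for all strong beta peaks. At 40 to 49 tags this held for 121 of 375 sites (32.3%) and 43.9% of all strong beta peaks of that height, and at 50 to 59 tags for 51 of 196 sites (26.0%) and 36.2%. At 60 to 79 tags it held for 34 of 161 sites (21.1%) and 30.7%, and at 80 tags or more for 13 of 65 sites (20.0%) and 18.9%.

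**Figure D4:**
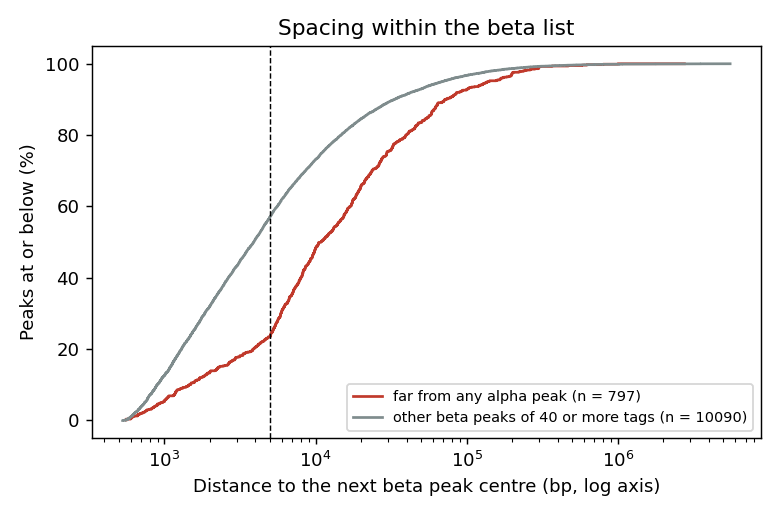
Cumulative share of peaks (y) by the distance to the next beta peak centre (x, log axis), for the sites far from any alpha peak (red) and the other beta peaks of 40 or more tags (grey); the dashed line marks 5000 bp. At the line the red curve stands at 23.3%, and the medians are 10882 and 3895 bp.

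The 797 sites fell into 730 stretches between neighbouring alpha centres, of which 672 held 1 site, and none held more than 3. The stretch around a site had a median length of 100880 bp between alpha centres (quartiles 42665 and 226632 bp), leaving out 1 site beyond the outermost alpha peak of its chromosome. The distance limit sets a floor under these lengths, so they are given as a description only. No other beta peak lay within 50 kb to either side of 132 sites (16.6%), against 7.78% of all strong beta peaks.

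The 5 sites farthest from alpha were of ordinary height but for 1, and 3 of them had 10 or more input tags. Of all 76 sites more than 100000 bp from alpha, 9.21% had that many, and of all sites 8.28%. The farthest lay on chromosome 7 at 10600571 to 10600781, 2759268 bp from the nearest alpha centre, with 47 tags, 10 input tags and 9 tags in all the rest of its 10 kb. Its fold over input was 4.36. The next lay on chromosome 17 at 59151833 to 59152043, at 1168341 bp, also with 10 input tags, under 56 tags, and with a beta peak of 30 tags only 822 bp away. On chromosome 10, the site at 100953065 to 100953275 (62 tags, 5 input tags) lay 1002758 bp from alpha, and on chromosome 1 that at 6501004 to 6501214 (48 and 2) lay 716141 bp away. The site on chromosome 4 at 146806109 to 146806319 completed these 5.

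A minority of the sites lay in groups. With centres within 10 kb of the next, 74 sites formed 36 groups, 34 of 2 and 2 of 3 sites, and 16 groups spanned less than 2000 bp. The strongest pair by summed tags was on chromosome 6, with 101 tags at 129162608 to 129162818 and 94 tags at 129163507 to 129163717. Its centres were 899 bp apart, its input was 1 and 3 tags, and the nearest alpha centre was 16606 bp away. A pair on chromosome 7 held 43 tags at 56079213 to 56079423 and 122 tags at 56080190 to 56080400. The groups of 3 were on chromosome 1 from 169276371 to 169281460 (49, 62 and 42 tags) and on chromosome 19 from 5822484 to 5831831 (51, 44 and 57 tags). For all sites the median distance to the next site was 474591 bp (397684 to 545937 bp).

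Every chromosome with beta peaks had sites of this kind. They numbered 60 on chromosome 6, the most, and 10 on chromosome X, the fewest. As a share of the strong beta peaks of an autosome they ranged from 5.22% on chromosome 4 (43 of 824, 3.80% to 6.97%) to 9.67% on chromosome 15 (53 of 548, 7.33% to 12.5%). All autosomes together gave 7.29% (6.80% to 7.79%). Chromosomes 10 (9.61%) and 19 (9.25%) came next after 15. Chromosome 19 had the most alpha peaks per Mb (15.7) and also the most strong beta peaks per Mb (7.83). The X chromosome had 10 sites among 87 strong beta peaks (11.5%, 5.65% to 20.1%), an interval that holds the autosomal value. Both alpha peaks (1.21 per Mb) and strong beta peaks (0.546 per Mb) were sparsest there. A higher share on X was not detectable at this number of peaks.

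**Figure D5:**
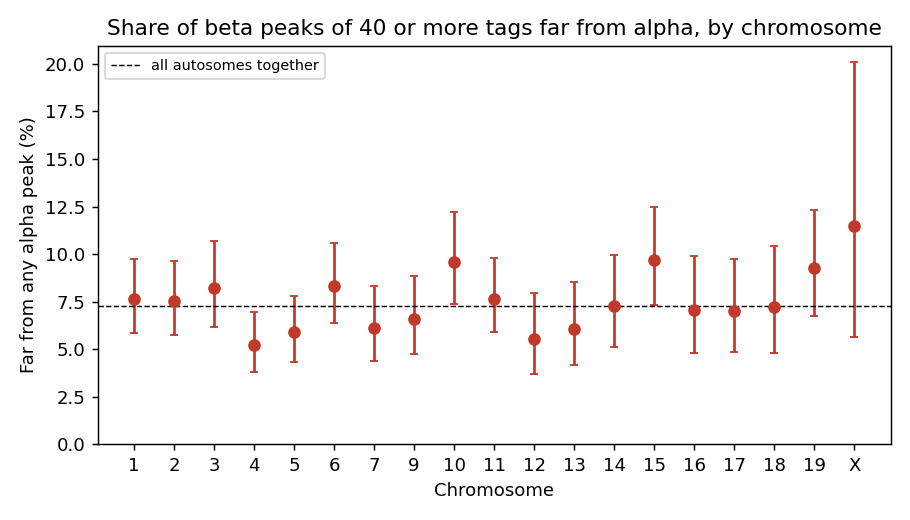
Share of beta peaks of 40 or more tags that lie far from any alpha peak (y, %) on each chromosome (x); points are shares, bars exact 95% binomial intervals, and the dashed line is the value of all autosomes together, 7.29%. Chromosome 4 has the lowest value (5.22%) and X the highest (11.5%), with the widest bar.

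On the X chromosome, input was lower at the other strong beta peaks than at these sites, without matching for height. Its 77 other strong beta peaks had a mean of 2.09 input tags (1.78 to 2.44), against 4.32 (4.28 to 4.36) on the autosomes. The 10 X sites had 5.70 (4.32 to 7.39), or 4.22 (2.99 to 5.80) without the highest, and the autosomal sites 4.79 (4.64 to 4.94). Input at the 10 sites, from the highest to the lowest by beta tags, was 19, 8, 0, 6, 7, 0, 2, 6, 6 and 3 tags. The second highest, at 101024281 to 101024491, held 75 tags in a poor surrounding of 33 tags. The next, at 94939810 to 94940020, held 62 tags over 0 input tags, and its nearest alpha centre was 307345 bp away.

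The same comparison in the alpha list also gave higher input, but it is tied to a filter in the same way. Its far peaks are those missing from the beta list, where peaks with input held at least 4.13 times their input. Under the same limits, 393 of 6859 alpha peaks of 40 or more tags lay more than 5000 bp from any beta centre (5.73%, 5.19% to 6.31%), on the chromosomes where both lists have peaks. Their windows held a mean of 4.95 input tags (4.73 to 5.17) against 3.65 (3.60 to 3.70) at the other alpha peaks, a ratio of 1.36 (1.29 to 1.42). The corresponding ratio in the beta list was 1.12 (1.08 to 1.15). Surroundings, tied to the distance limit as in the beta list, had a median of 162 alpha tags against 230. The windows differ in width, 210 bp in the beta list and 153 bp in the alpha list, and 40 tags is a different height in each library, so the levels of the lists are not compared.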

How the data were processed

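Liver chromatin was crosslinked with disuccinimidyl glutarate and then formaldehyde, per the labels' protocols. Bowtie and HOMER were used with mm9, per the submitters' processing notes; versions, filters and library totals are not stated there. The authors deposited 1 peak list per antibody with raw tag counts. They cover a window of fixed size (210 bp in the beta list, 153 bp in the alpha list): unique positions, all tags and input tags. A further count covers 10000 bp around each peak. The deposited peak score (lowest 14 and 12) was not used, nor was the deposited FDR, a q-value that is 0 in every row. Depth is therefore known only as tags per window.

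The limits and the measures compared were chosen with earlier results of these data known. Centres are midpoints of the windows. Sites named are the 10 highest, the 5 farthest from alpha, the 5 with most input, the 5 most and least repeated, the 3 nearest either side of the distance limit, the 3 highest on X, and groups within 10 kb; groups and limits are given by examples and counts. Surrounding density uses the tags of the 10 kb minus those of the window. Alternatives were other tag and distance limits, unique positions, tags at least 8 times input, higher alpha peaks only, and no X chromosome. The planned motif and gene comparisons were not made, since no mm9 sequence or annotation was used here. As a check of the code only, the rule was run on simulated lists of 2400 sites made with the same limits. It found all 360 sites placed to meet the rule and 0 others, which says nothing about binding. Python 3.11.15, numpy 2.4.6, pandas 2.3.3, scipy 1.17.1 and matplotlib 3.10.9 were used.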

Additional observations from a re-analysis of the deposited data

Results flagged for a closer look

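One signal lies outside every comparison made here: the alpha list has 456 peaks of 40 or more tags on chromosome 8 (median 59 tags, median 3 input tags), where the beta list as used here has 0 peaks.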

How the results depend on the processing

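The number of sites follows its limits. It was 1705 with 30 tags, 226 with 60 tags, 179 with 40 unique positions, 1523 with 1000 bp, 351 with 20000 bp and 1322 when the lowest 25% of alpha peaks by tags did not count as partners. It stayed within 1.5 times 797 with 10000 bp (548), with tags at least 8 times input (593) and without the X chromosome (787). The autosomal share was 3.46% with 60 tags and 3.20% with 20000 bp. The ratio of mean input was 1.29 with 60 tags. In settings chosen after the data were seen, it was 1.56 at 80 or more tags and 1.18 weighted over the tag classes. All 7 alternatives of this ratio lay above 1, and all of them keep the input floor of the lists. The difference in tags per unique position turned to -0.013 with 60 tags. Its range of -0.070 to 0.035 again joins opposite ends of the median intervals. The difference in median density was 4.72 with 60 tags, 5.28 with 20000 bp and, chosen later, -1.90 without peaks that had another beta centre within 5000 bp, although within height classes of that setting the sites were denser in 3 of 4; the cause was not tested. With 20000 bp the next beta peak was 23785 bp farther away at the median than for other strong beta peaks. The next site lay 2534329 bp away with 60 tags and 1813380 bp with 20000 bp, since fewer sites remain. No paired analysis was possible because there was 1 library of each kind, and for that reason none could be left out. The alternatives for motifs and genes were not run.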
